A study of Homo sapiens with 6 samples.

Results

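The genes described here encode the enzyme complexes of oxidative phosphorylation and the proteins that assemble them. They were taken by name, as every probe set with exactly 1 annotated gene symbol that began with NDUF, SDHA to SDHD, UQCR or ATP5, or was COX followed by a number, or was CYC1 or CYCS. This gave 109 genes measured by 251 probe sets, of 18132 genes and 49395 probe sets on the array. By role they were 82 subunits, 21 assembly factors, cytochrome c, the ATP synthase inhibitor ATP5IF1, the copies UQCRHL and ATP5MGL of subunit genes, and the SDHA-related pseudogenes SDHAP3 and SDHAP4. Some subunit genes of these complexes were not analysed here.

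The respiratory chain lies in the inner mitochondrial membrane. Complex I (NADH dehydrogenase) and complex II (succinate dehydrogenase) pass electrons to ubiquinone, complex III passes them on to cytochrome c, and complex IV (cytochrome c oxidase) hands them to oxygen. Complexes I, III and IV pump protons, and complex V (ATP synthase) uses the returning protons to make ATP. Most subunits are encoded in the nucleus and a few in mitochondrial DNA, and dedicated assembly factors that are absent from the finished enzymes put them together. Endothelial cells draw much of their ATP from glycolysis, and their respiratory chain also serves biosynthesis and redox signalling.

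The cells were HMEC-1, a line of human microvascular endothelium carrying a viral oncoprotein that keeps it dividing. They received either EPC-Exos at 1e+11 particles per mL or the same volume of PBS, for 24 hours in serum-free MCDB131 medium. EPC-Exos are known to be exosomes, small extracellular vesicles, of endothelial progenitor cells, although the labels hold the abbreviation alone. RNA of 3 EPC-Exos samples and 3 PBS samples was hybridised to 1 array each. Whether the replicates are separate cultures is not stated, so each p-value below speaks only of the scatter among these arrays, which may be technical, and a batch cannot be told apart from the treatment.

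Array medians lay between 6.25 and 6.34 on the log2 scale, and correlations over probe sets were 0.997 within a group and 0.988 to 0.989 between groups. Of 11 endothelial markers, 4 (CDH5, TEK, EMCN and CLDN5) had mean log2 signals below 5.06 in both groups, the highest group mean among the 17 Tag controls, whose probes have no human target. ENG (9.96 with EPC-Exos, 9.16 with PBS) and TIE1 (7.85 and 7.36) were above it. Some markers of other cell types moved with the groups. The summed linear signal of the 6 fibroblast or mural markers was 293 to 331 in EPC-Exos arrays and 738 to 834 in PBS arrays. DCN, ACTA2 and PDGFRB were lower and DES was not called. For the 11 endothelial markers the sum was 1660 to 1710 and 1060 to 1250. Of the 6 tested, ENG, the brightest, and TIE1 were higher, and VWF, KDR, ERG and MCAM were not called. The sums of the 5 leukocyte markers were 433 to 474 and 296 to 307, with CD68 higher and PTPRC, CD14 and ITGAM below the Tag level. Those of the 3 epithelial markers were 3620 to 3770 and 5660 to 6200. KRT18, by far the brightest of the 3, was lower (mean log2 signals of 11.82 with EPC-Exos and 12.53 with PBS). EPCAM was not called (-0.0020) and CDH1 was below the Tag level. The part of these shifts in the results below was not tested, and fewer cells of a type and less RNA per cell cannot be told apart.

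Each gene was read from its brightest probe set by mean signal and tested with limma where that mean reached a log2 signal of 5.45. A gene is called higher or lower, or said to have risen or fallen, at a Benjamini-Hochberg adjusted p under 0.05 over all 11715 genes tested. A change is the mean log2 signal of the EPC-Exos arrays minus that of the PBS arrays. There were 3 arrays per group throughout, and the error after a change is limma's standard error (SE).

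Of the 109 genes, 103 were tested and 53 (51.5%) were called, against 49.1% of all genes tested. In detail, 22 rose (21.4%, against 21.7% of all genes) and 31 fell (30.1%, against 27.3%), so the shares were near the background. That depended on limma's variance trend. Without it 34 of the 103 were called, while 20.6% of all genes were called higher and 25.7% lower. The changes were small. Of the 103, 14 (13.6%) were called with a change of at least 1.2-fold, against 34.9% of all genes, and 2 (1.94%), NDUFAF4 and NDUFAF2, with at least 1.5-fold, against 9.89%. Groups did not overlap in 64 of the 103 (62.1%, against 55.7%), in 28 with EPC-Exos higher (27.2%, against 25.5%) and in 36 with EPC-Exos lower (against 30.2% of all genes). The median log2 change was -0.034 over the 103 and -0.011 over all genes. By role, 11 of the 78 tested subunits rose (14.1%, against 21.7% of all genes) and 29 fell (37.2%, against 27.3%; median -0.054). Of the 21 assembly factors 10 rose (47.6%) and 1 fell (4.76%; median 0.13). In either direction 51.3% of the subunits and 52.4% of the assembly factors were called, near the 49.1% of all genes.

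**Figure D1:**
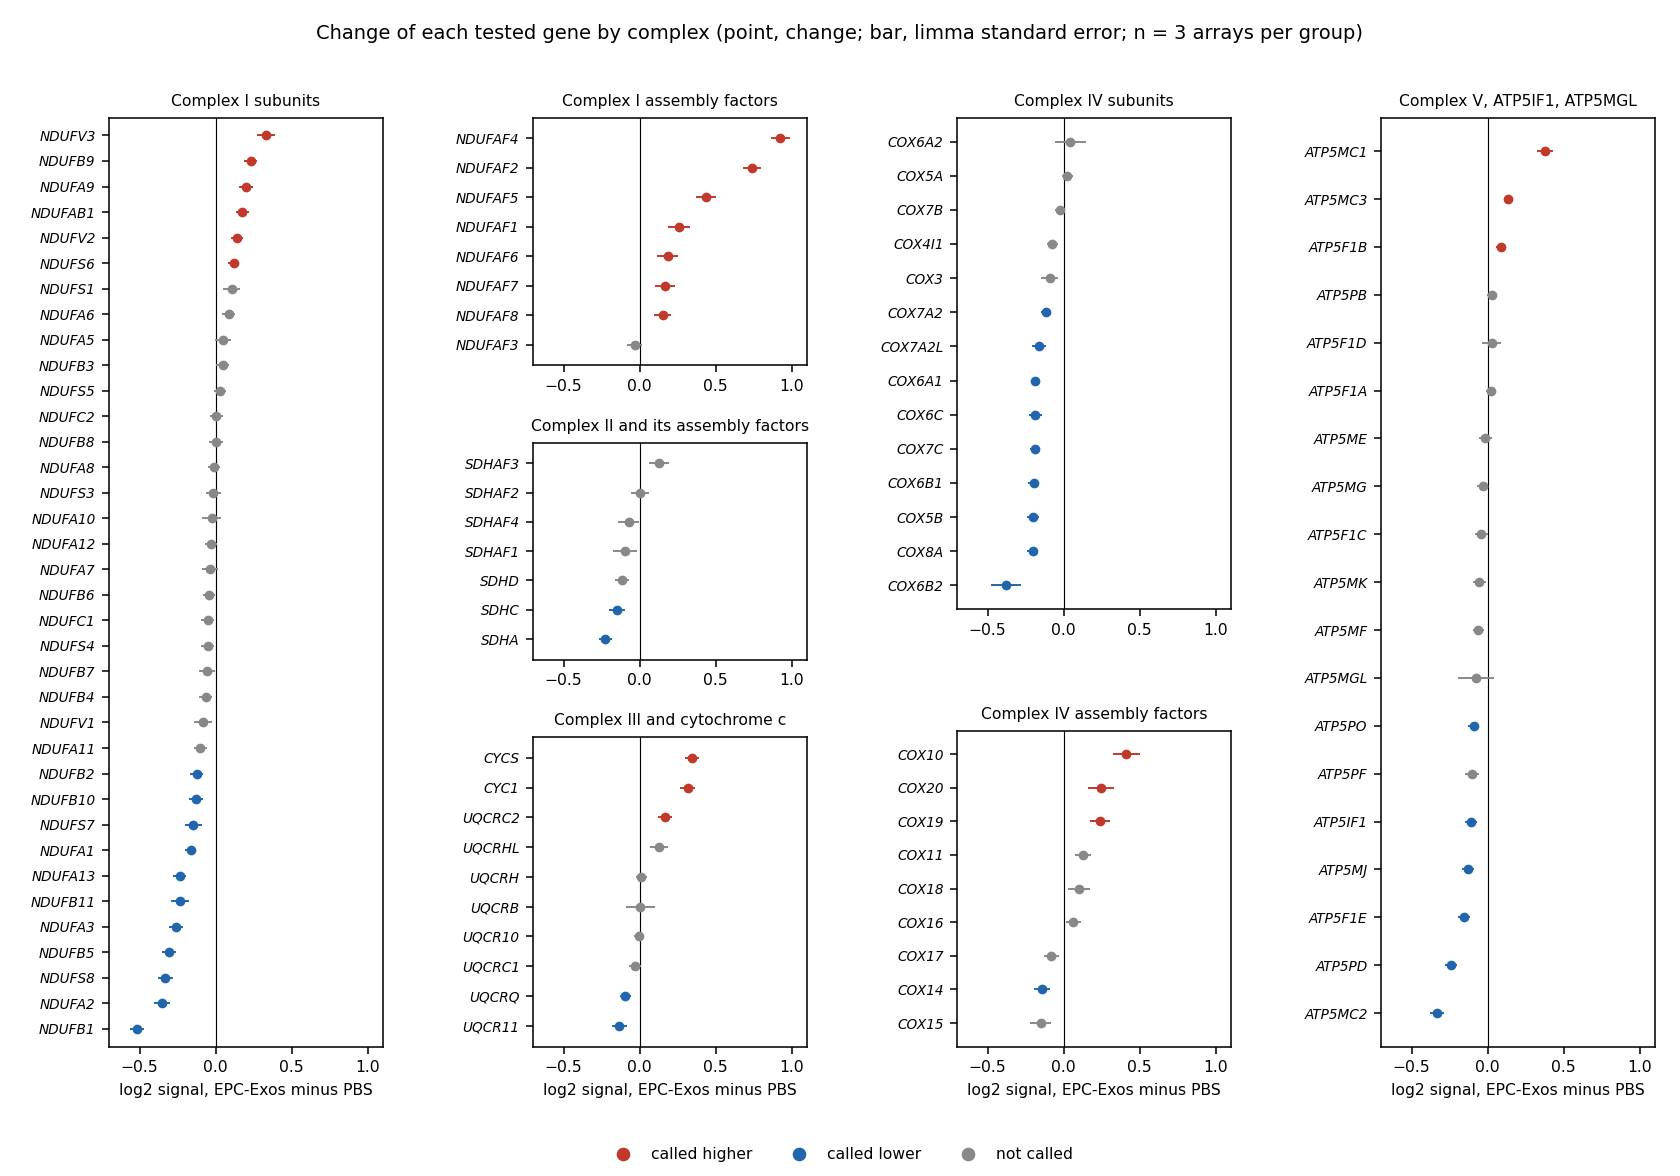
Log2 change (EPC-Exos minus PBS, horizontal axes) of the tested genes, by complex and role, with limma standard errors as bars and 3 arrays per group. Colour marks genes called higher, called lower and not called. Complex I assembly factors lie to the right of 0 except NDUFAF3, up to 0.93 for NDUFAF4, and the called complex IV subunits lie to the left of it.

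Promoter sequences of 7 genes that carry these results are shown first. RefSeq (GRCh38.p14) promoters were found for 88 of the 109 genes, as windows of 300 bases, 250 before to 50 after the annotated start. Printed below, 5′ to 3′ on the gene's strand, are the 250 bases before the start of 3 genes that rose (NDUFAF4, NDUFAF2 and CYCS), the complex IV subunit genes COX6A1 and COX8A that fell, and the paralogs ATP5MC1, which rose, and ATP5MC2, which fell. Capitals mark matches to motifs of factors known to control respiratory genes. These were GCGCANGCG for NRF1, CCGGAAG for the ETS family that includes GABPA, AANATGGC for YY1 and CACGTG, the E-box of MYC and related factors, on either strand. ETS and YY1 matches can overlap, since the end of the ETS motif may begin the YY1 motif, and a match that reaches past the start is not marked.
NDUFAF4, chr6:96897892-96898141, minus strand: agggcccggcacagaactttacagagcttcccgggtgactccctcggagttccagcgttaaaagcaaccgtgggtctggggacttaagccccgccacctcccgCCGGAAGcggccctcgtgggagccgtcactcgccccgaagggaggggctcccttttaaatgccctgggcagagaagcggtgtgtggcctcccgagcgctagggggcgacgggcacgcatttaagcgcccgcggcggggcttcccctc
NDUFAF2, chr5:60944955-60945204, plus strand: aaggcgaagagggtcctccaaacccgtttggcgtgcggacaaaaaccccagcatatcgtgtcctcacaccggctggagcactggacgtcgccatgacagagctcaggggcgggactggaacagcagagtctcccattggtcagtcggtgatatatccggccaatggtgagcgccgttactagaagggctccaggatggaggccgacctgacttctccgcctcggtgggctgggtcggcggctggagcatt
CYCS, chr7:25125261-25125510, minus strand: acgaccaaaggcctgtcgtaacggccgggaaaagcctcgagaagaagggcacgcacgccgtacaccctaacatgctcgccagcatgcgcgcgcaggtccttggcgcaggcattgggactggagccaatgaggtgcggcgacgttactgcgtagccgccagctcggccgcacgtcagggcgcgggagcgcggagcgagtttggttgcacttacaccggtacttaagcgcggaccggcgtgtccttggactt
COX6A1, chr12:120437863-120438112, plus strand: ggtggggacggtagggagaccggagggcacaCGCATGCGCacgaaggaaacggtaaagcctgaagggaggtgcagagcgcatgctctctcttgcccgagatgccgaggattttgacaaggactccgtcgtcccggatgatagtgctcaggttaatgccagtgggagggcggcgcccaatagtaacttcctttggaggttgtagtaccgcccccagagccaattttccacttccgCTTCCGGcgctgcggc
COX8A, chr11:63974370-63974619, plus strand: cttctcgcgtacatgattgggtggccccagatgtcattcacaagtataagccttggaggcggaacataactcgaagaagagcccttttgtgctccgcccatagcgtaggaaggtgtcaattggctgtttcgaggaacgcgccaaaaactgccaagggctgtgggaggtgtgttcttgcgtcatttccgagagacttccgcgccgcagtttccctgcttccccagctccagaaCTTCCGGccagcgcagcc
ATP5MC1, chr17:48892537-48892786, plus strand: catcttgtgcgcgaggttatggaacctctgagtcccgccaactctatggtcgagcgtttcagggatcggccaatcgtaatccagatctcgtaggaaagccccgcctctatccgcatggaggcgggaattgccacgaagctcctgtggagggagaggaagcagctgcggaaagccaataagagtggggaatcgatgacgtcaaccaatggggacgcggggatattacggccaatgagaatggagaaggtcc
ATP5MC2, chr12:53676084-53676333, minus strand: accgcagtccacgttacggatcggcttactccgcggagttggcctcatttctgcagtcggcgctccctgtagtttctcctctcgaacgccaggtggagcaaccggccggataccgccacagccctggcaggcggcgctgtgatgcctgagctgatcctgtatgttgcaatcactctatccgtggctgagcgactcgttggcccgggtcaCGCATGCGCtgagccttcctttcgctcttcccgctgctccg

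In these bases NDUFAF4 held an ETS match 147 to 141 bases before the start, COX6A1 an NRF1 match at 219 to 211 and an ETS match at 16 to 10, and COX8A an ETS match at 18 to 12. For ATP5MC2, which has 3 annotated starts in the table, the NRF1 match lay 41 to 33 bases before the start shown. The bases before its other annotated starts, not printed here, held none of the 4 motifs, so the match depends on the start taken. The printed bases of NDUFAF2, CYCS and ATP5MC1 held none of the 4 motifs. Beyond the printed bases, ATP5MC1 held an E-box match and COX6A1 a YY1 match after the start, and a YY1 match in COX8A reached past the start. Over the whole 300-base windows, NRF1 letters were in 31.8% of the 88 genes (9.02% of all 27305 genes in the table), ETS letters in 31.8% (12.2%), YY1 letters in 33.0% (7.97%) and E-box letters in 10.2% (8.77%). By direction, YY1 letters were in 35.3% of the 17 genes that rose, 32.1% of the 28 that fell and 34.1% of the 41 not called. For NRF1 letters the shares were 23.5%, 28.6% and 36.6%, and for ETS letters 23.5%, 32.1% and 36.6%. These are matches of letters, not measured sites.

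Complex I has a hydrophilic arm, which oxidises NADH, and a membrane arm, which pumps protons. Its 36 measured subunit genes were all tested, and 6 rose (16.7%) and 11 fell (30.6%), near the shares of all genes (21.7% and 27.3%). The other 19 were not called. Over the 36 genes the median log2 change was -0.040, with a range of -0.52 to 0.33. The largest fall among the 78 tested subunits was in NDUFB1, which encodes a small accessory subunit of the membrane arm. Its log2 signal was 11.63, 11.68 and 11.51 in the EPC-Exos arrays, against 12.09, 12.16 and 12.13 in the PBS arrays. The groups lay apart, the linear signal fell by 30.2% and the log2 change was -0.52 ± 0.045 (SE; limma adjusted p = 6.74e-08). NDUFA2, a thioredoxin-like accessory subunit of the NADH-oxidising module, had 10.28, 10.39 and 10.32 with EPC-Exos, against 10.65, 10.64 and 10.74 with PBS, a log2 change of -0.35 ± 0.052 (limma adjusted p = 2.85e-05). The iron-sulphur core subunit gene NDUFS8 had 10.92, 10.81 and 10.77 with EPC-Exos, against 11.14, 11.16 and 11.19 with PBS. Every EPC-Exos value of both genes lay below every PBS value, and NDUFS8 changed by -0.33 ± 0.049. A dimmer NDUFS8 probe set did not pass (0.070 ± 0.10), and with the mean of both the change was -0.13 (limma adjusted p = 0.0777). NDUFB5 (-0.30 ± 0.045) and NDUFA3 (-0.26 ± 0.045), which encode accessory subunits of the membrane arm, fell as well. The next falls, named after their values were seen, were in NDUFB11 (-0.24 ± 0.059), NDUFA13 (-0.24 ± 0.043) and NDUFA1 (-0.16 ± 0.036). A dimmer NDUFA13 probe set did not pass (0.26 ± 0.14).

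In the other direction, NDUFV3, an accessory subunit of the NADH-oxidising module, had log2 signals of 9.82, 9.91 and 9.87 in EPC-Exos arrays and 9.52, 9.48 and 9.61 in PBS arrays. All EPC-Exos arrays were above all PBS arrays, with a change of 0.33 ± 0.058 (limma adjusted p = 0.000162). That held on the brightest probe set alone. The other 2 did not pass (-0.17 ± 0.084 and -0.0026 ± 0.10), and with the mean of the probe sets NDUFV3 changed by 0.052 (limma adjusted p = 0.508). The next rises, named here after their values were seen, were in NDUFB9 (0.23 ± 0.042), NDUFA9, which stabilises the junction of the arms (0.20 ± 0.047), and NDUFAB1, the mitochondrial acyl carrier protein (0.18 ± 0.042). Among the 6 tested core subunit genes, named after their values were seen, NDUFV2 rose (0.14 ± 0.041) and NDUFS8 and NDUFS7 fell (-0.15 ± 0.057 for NDUFS7). The other 3 were not called, with changes of 0.11 for NDUFS1, -0.014 for NDUFS3 and -0.085 for NDUFV1. NDUFS7 was called although the groups overlapped, a call lost in 4 of 6 fits that left out 1 array, with 10.40, 10.55 and 10.49 in EPC-Exos arrays and 10.54, 10.63 and 10.71 in PBS arrays. The smallest changes were in NDUFB8 (0.0031, 95% interval -0.099 to 0.10) and NDUFC2 (0.0047, -0.088 to 0.098), each on the brightest probe set. NDUFC2 fell on its dimmer probe sets (-0.72 and -0.61), and the mean of its probe sets changed by -0.44 (limma adjusted p = 1.73e-05).

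Of 8 tested assembly factors of complex I, 7 rose (87.5%, against 21.7% of all genes) and 0 fell, and their median log2 change was 0.22. NDUFAF4, which acts with NDUFAF3 early in the assembly of the ubiquinone-binding module, changed most of the 103 genes. Its log2 signals were 9.51, 9.55 and 9.50 with EPC-Exos and 8.62, 8.53 and 8.63 with PBS. The gap between the groups was many times the scatter within them, and the rise was 1.90-fold (0.93 ± 0.062; limma adjusted p = 3.26e-09). NDUFAF2, a paralog of subunit NDUFA12 that acts late in assembly, had 10.25, 10.13 and 10.18 in EPC-Exos arrays, against 9.49, 9.44 and 9.41 in PBS arrays. The groups were again far apart, and it rose 1.67-fold (0.74 ± 0.057; limma adjusted p = 1.73e-08).

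NDUFAF5, which hydroxylates subunit NDUFS7, had log2 signals of 8.97, 9.08 and 9.03 with EPC-Exos and of 8.55, 8.61 and 8.59 with PBS (change 0.44 ± 0.064). For NDUFAF1, of the assembly complex for the membrane arm, the values were 8.88, 8.95 and 8.88 in EPC-Exos arrays and 8.51, 8.65 and 8.76 in PBS arrays (0.26 ± 0.072). In both genes the groups did not overlap, and the first PBS array was the lowest. The smaller rises, named after their values were seen, were in NDUFAF6 (0.19 ± 0.070), NDUFAF7, a mitochondrial methyltransferase (0.17 ± 0.066), and NDUFAF8, the partner of NDUFAF5 (0.15 ± 0.055). Their limma adjusted p lay between 0.0302 and 0.0441. In the 6 fits that left out 1 array, the call was lost in 6 for NDUFAF6, in 5 for NDUFAF7 and in 3 for NDUFAF8. The count of 7 thus became 4 to 6 in these fits. It was 4 without EPC-Exos replicate 2, EPC-Exos replicate 3 or PBS replicate 1, through the loss of these 3. NDUFAF3 did not pass (-0.032 ± 0.051).

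**Figure D2:**
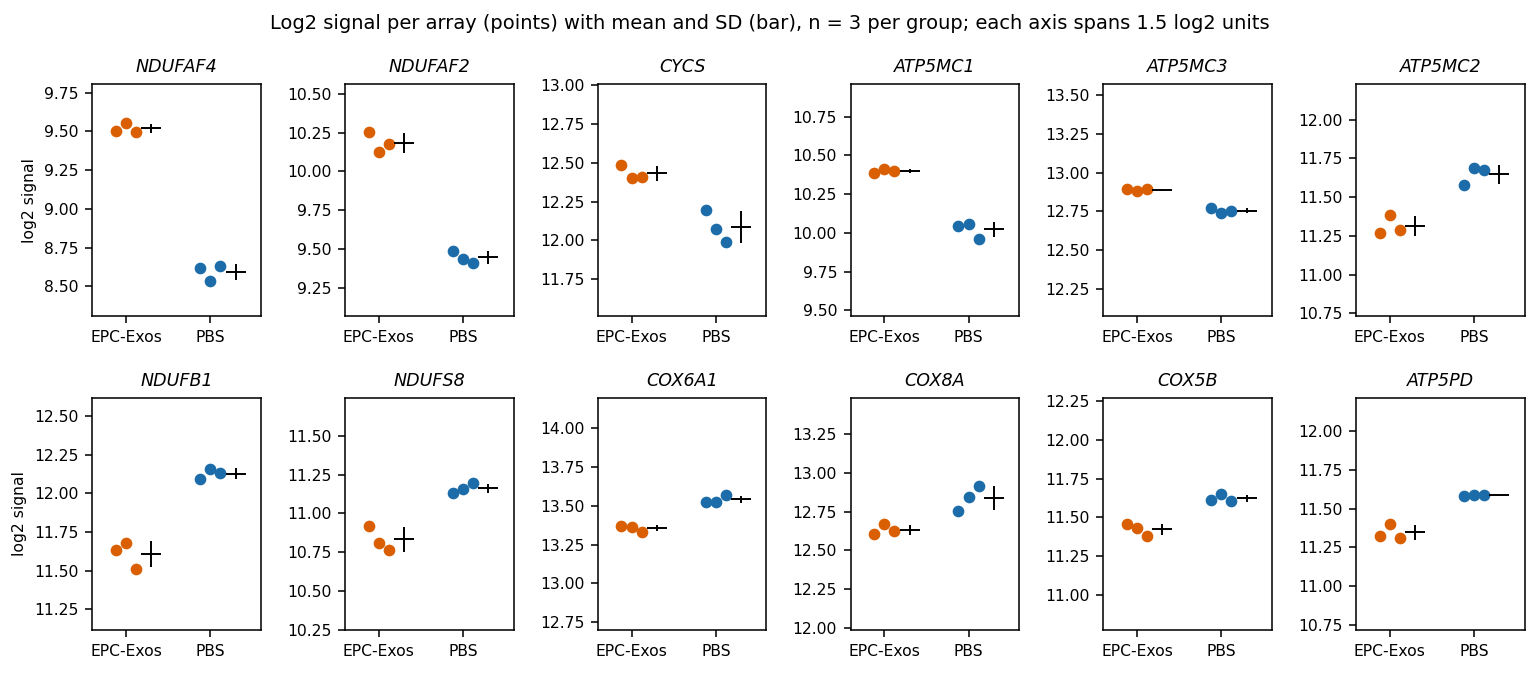
Log2 signal (vertical axes) of 12 genes in the 3 EPC-Exos arrays (left) and the 3 PBS arrays (right), with mean and SD as bars. NDUFAF4 and NDUFAF2 show the widest gaps, ATP5MC1 and ATP5MC2 differ in opposite directions, and the changes of COX6A1, COX8A and COX5B are -0.19, -0.20 and -0.20.

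Complex II, which is also an enzyme of the TCA cycle, had 3 measured subunit genes. SDHA, the flavoprotein that oxidises succinate, had log2 signals of 11.04, 10.99 and 11.03 in EPC-Exos arrays, against 11.19, 11.26 and 11.29 in PBS arrays. The groups were apart, and SDHA fell (-0.23 ± 0.045; limma adjusted p = 0.00048). The membrane anchor gene SDHC fell as well, with 10.51, 10.51 and 10.60 with EPC-Exos against 10.59, 10.71 and 10.76 with PBS. These groups overlapped, and the SDHC change of -0.15 ± 0.054 had an adjusted p of 0.0311 in limma, a call lost in 4 of 6 fits that left out 1 array. The other anchor gene, SDHD, did not pass (-0.12 ± 0.049; limma adjusted p = 0.058). It was called lower with quantile normalization, cyclic loess, array weights, the mean of its probe sets and without PBS replicate 1, and 3 of its 5 probe sets were called lower (-0.18, -0.18 and -0.15). Of the 4 tested assembly factors, SDHAF1 to SDHAF4, 0 were called by limma (0 also at an unadjusted p under 0.05), with changes from -0.096 to 0.13 and SDHAF2, which adds flavin to SDHA, the smallest (0.0031 ± 0.059).

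In complex III, which passes electrons from ubiquinol to cytochrome c, 2 of 8 tested subunit genes rose (25%), 2 fell (25%) and 4 were not called, near the shares of all genes (median 0.0013). CYC1, the cytochrome c1 subunit that hands electrons to cytochrome c, had log2 signals of 11.81, 11.86 and 11.82 with EPC-Exos and 11.41, 11.49 and 11.63 with PBS. The PBS arrays were more spread but all lower, and CYC1 rose by 0.32 ± 0.049 (limma adjusted p = 5.06e-05). UQCRC2, a core subunit on the matrix side, rose by 0.17 ± 0.045, with 11.42, 11.45 and 11.44 in EPC-Exos arrays against 11.19, 11.31 and 11.32 in PBS arrays. The small subunit genes UQCR11 (-0.13 ± 0.049) and UQCRQ (-0.095 ± 0.036) fell, calls lost in 4 and 3 of 6 fits that left out 1 array, and both also with median centring, without the variance trend and with the mean of probe sets. UQCR10 changed by -0.0014 (95% interval -0.070 to 0.067) and UQCRB by 0.0040 (-0.20 to 0.21), so the interval was wider for UQCRB.

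Cytochrome c, the carrier between complexes III and IV and a trigger of apoptosis once released, is encoded by CYCS. Its brightest probe set had log2 signals of 12.49, 12.40 and 12.41 with EPC-Exos, against 12.20, 12.07 and 11.99 with PBS. All EPC-Exos arrays were higher, and the rise was 1.27-fold (0.35 ± 0.046; limma adjusted p = 1.05e-05). Its other probe sets did not all move the same way, as described with the probe sets.

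Complex IV subunits were called in a single direction. Of 14 tested subunit genes, 9 fell (64.3%, against 27.3% of all genes) and 0 rose. Their median log2 change was -0.17. Among the 11 nuclear subunits made in most tissues, 8 fell (72.7%, against 27.3% of all genes). A change below 0 was seen in 10 of them, and in 6069 of all 11715 genes tested. Centred on each gene's own mean, the median over the 14 genes was -0.060, -0.048 and -0.12 in the EPC-Exos arrays and 0.046, 0.074 and 0.077 in the PBS arrays. The same median over all genes tested was -0.021, 0.025 and -0.023 in the EPC-Exos arrays and -0.0091, 0.0039 and 0.037 in the PBS arrays. Of the array's RNA controls, read as the 3′ minus the 5′ log2 signal, GAPDH was 0.011 ± 0.035 with EPC-Exos and 0.0015 ± 0.020 with PBS (SD), while the one labelled RGE was -1.08 ± 0.042 with EPC-Exos and -1.20 ± 0.044 with PBS, a difference of 0.12. Its part in these results was not tested.

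COX6A1, a small transmembrane subunit, had log2 signals of 13.37, 13.37 and 13.33 with EPC-Exos, against 13.53, 13.53 and 13.57 with PBS. The scatter was small beside the gap, and the change was -0.19 ± 0.027 (limma adjusted p = 2.74e-05). COX8A, a small subunit of the membrane part, had 12.61, 12.67 and 12.63 with EPC-Exos and 12.76, 12.85 and 12.91 with PBS, and changed by -0.20 ± 0.039. COX5B, which binds zinc on the matrix side, had 11.45, 11.43 and 11.38 with EPC-Exos, against 11.61, 11.65 and 11.60 with PBS, and changed by -0.20 ± 0.040. In each of these genes every EPC-Exos array lay below every PBS array. The same held for COX6B1, which links the monomers of the dimeric enzyme, with 12.16, 12.15 and 12.10 in EPC-Exos arrays and 12.31, 12.34 and 12.35 in PBS arrays (-0.20 ± 0.035). COX7C (-0.19 ± 0.033), COX6C (-0.19 ± 0.044), COX7A2L, a factor of respiratory supercomplexes (-0.16 ± 0.047), and COX7A2 (-0.12 ± 0.029) fell as well. The limma adjusted p of these 8 genes ran from 2.74e-05 for COX6A1 to 0.00832 for COX7A2L, whose call was lost in 1 fit that left out an array (limma adjusted p = 0.0567). The call of COX7A2 was lost with median centring and without the variance trend.

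The nuclear subunits that did not pass were COX4I1, which carries a regulatory ATP site (-0.073 ± 0.034; limma adjusted p = 0.0905; called lower with quantile normalization and cyclic loess), COX7B (-0.026 ± 0.034) and COX5A (0.024 ± 0.037). COX3, encoded in mitochondrial DNA and part of the catalytic core, had 13.50, 13.61 and 13.34 with EPC-Exos and 13.66, 13.60 and 13.47 with PBS. These groups overlapped and the change of -0.093 ± 0.053 did not pass. COX3 was called lower with cyclic loess (adjusted p = 0.0487 in limma) and without EPC-Exos replicate 2 or PBS replicate 3.

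Of 6 isoform genes known from muscle, lung or testis, 4 lay below the signal filter. COX7A1, COX7B2 and COX8C had mean signals of 3.95, 2.97 and 4.30 with EPC-Exos and 3.95, 2.86 and 4.02 with PBS, below the Tag level in both groups. COX4I2, the hypoxia-linked partner of COX4I1, had 4.72, 5.26 and 5.28 in EPC-Exos arrays and 4.71, 5.00 and 4.77 in PBS arrays, overlapping groups near that level. COX6A2 was tested and did not pass (0.045 ± 0.10). COX6B2 had 6.55, 6.54 and 6.59 with EPC-Exos, against 6.75, 6.97 and 7.09 with PBS, and fell (-0.38 ± 0.098; limma adjusted p = 0.00401). That call was lost without _x_at and _s_at probe sets, the kinds that can bind several transcripts.

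COXFA4, a complex IV subunit once named NDUFA4 and so outside the name rule, fell in the same fit (-0.13 ± 0.034; limma adjusted p = 0.00505). It had 12.41, 12.42 and 12.38 in EPC-Exos arrays against 12.50, 12.51 and 12.58 in PBS arrays. Without the variance trend COXFA4 was not called. Its paralogs COXFA4L2 and COXFA4L3, known from hypoxic and inflamed cells, had mean signals of 4.94 and 4.52 with EPC-Exos and 4.91 and 4.49 with PBS, below the Tag level in both groups.

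Of 9 tested assembly factors of complex IV, 3 rose (33.3%, against 21.7% of all genes), 1 fell (11.1%, against 27.3%) and 5 were not called (median 0.10). The share called, 44.4%, was near that of all genes, 49.1%. COX10, which makes the precursor of haem A for the active site, had 7.56, 7.64 and 7.59 with EPC-Exos, against 7.01, 7.27 and 7.27 with PBS. The first PBS array was lowest, all PBS arrays were below the EPC-Exos arrays, and COX10 rose by 0.41 ± 0.088 (limma adjusted p = 0.000913). COX20, a chaperone of the COX2 subunit (0.25 ± 0.084, a call lost in 3 of 6 fits that left out 1 array), and COX19, linked to copper delivery (0.24 ± 0.067), were called higher on their brightest probe sets, and both had probe sets called lower. COX14, named after its value was seen, fell (-0.14 ± 0.050), a call lost in 5 of 6 fits that left out 1 array. COX11, which carries copper to the catalytic subunit (0.13 ± 0.053), did not pass, and neither did the copper chaperone COX17 (-0.082 ± 0.050) or the haem A synthase COX15 (-0.15 ± 0.070), both named after their values were seen.

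**Figure D3:**
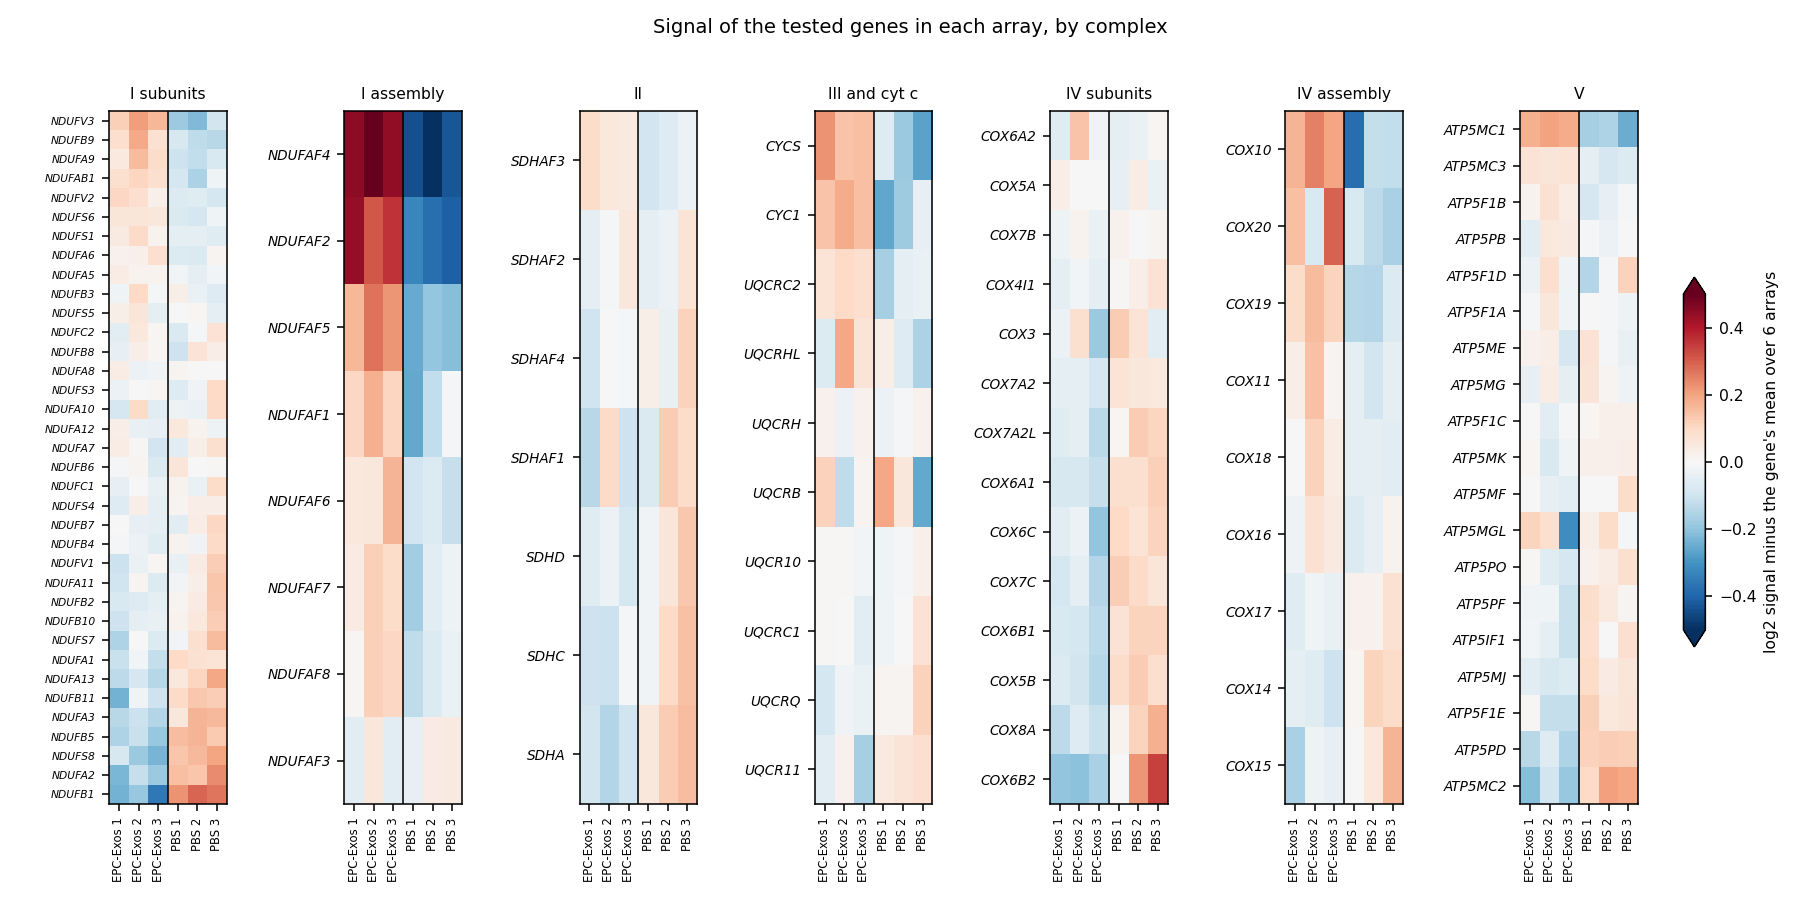
Log2 signal of each tested gene minus its own mean over the 6 arrays, with EPC-Exos arrays left and PBS arrays right of the line, by complex. Red is above and blue below the gene's mean. The called complex IV subunits are blue in the EPC-Exos arrays and mostly red in the PBS arrays, while the complex I assembly factors show the opposite pattern apart from NDUFAF3.

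ATP synthase has a catalytic head (F1) and a membrane rotor and stalk (Fo). Of its 17 tested subunit genes, 3 rose (17.6%) and 5 fell (29.4%), near the shares of all genes (21.7% and 27.3%), with a median change of -0.042. The count of 5 was 2 with median centring, 2 without the variance trend and 1 when _x_at and _s_at probe sets were left out. The catalytic subunit genes changed little. ATP5F1A changed by 0.022 (95% interval -0.045 to 0.088), and ATP5F1B, named after its value was seen, was called higher at 0.088 ± 0.032 (limma adjusted p = 0.0323), a call lost in 4 of 6 fits that left out 1 array. ATP5F1E, of the central stalk, fell (-0.16 ± 0.038), a call lost with median centring and without the variance trend. ATP5PD, of the peripheral stalk, had log2 signals of 11.33, 11.40 and 11.31 with EPC-Exos, against 11.58, 11.59 and 11.59 with PBS. The groups were apart and the change was -0.24 ± 0.041 (limma adjusted p = 0.00013). ATP5MJ fell on its brightest probe set (-0.13 ± 0.038), a call also lost with median centring and without the variance trend. ATP5ME did not pass (-0.017 ± 0.042). The inhibitor gene ATP5IF1, named after its value was seen, fell (-0.11 ± 0.039), a call lost in 4 of 6 fits that left out 1 array.

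The rotor ring of ATP synthase is made of copies of the c subunit, whose identical mature form is encoded by ATP5MC1, ATP5MC2 and ATP5MC3 with different import sequences. These genes did not move together. ATP5MC1 had log2 signals of 10.39, 10.41 and 10.40 with EPC-Exos, against 10.04, 10.06 and 9.96 with PBS, and rose 1.30-fold (0.38 ± 0.051; limma adjusted p = 1.19e-05). ATP5MC3 had 12.90, 12.88 and 12.89 with EPC-Exos, against 12.77, 12.74 and 12.75 with PBS, and rose by 0.13 ± 0.030 (limma adjusted p = 0.00123). The ATP5MC3 call was lost without the variance trend. For ATP5MC2 the signals were 11.27, 11.39 and 11.29 with EPC-Exos, against 11.58, 11.69 and 11.68 with PBS, and it fell by 20.6% (-0.33 ± 0.046; limma adjusted p = 1.44e-05). In all 3 genes the groups did not overlap. The only ATP5MC1 probe set was an _x_at one, a kind that can bind several transcripts, so its rise has no reading without that kind. ATP5MC3 was read by an _x_at probe set too. Its _a_at probe sets of mean signal 12.44 and 11.94 also rose (0.13 and 0.17), and a dimmer one did not pass (0.011). ATP5MC2 was read by an _a_at probe set.

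The difference between paralogs was compared within arrays. The log2 signal of ATP5MC1 minus that of ATP5MC2 was 0.71 higher with EPC-Exos, and that of ATP5MC3 minus ATP5MC2 was 0.47 higher, with every EPC-Exos array above every PBS array. The two-sided exact permutation p was 0.1 for each, the smallest that 3 against 3 arrays can give, and 0.125 after Benjamini-Hochberg adjustment over 5 pairs. For these pairs that outcome was fixed, because the groups of each gene already lay apart in opposite directions, so the p-value adds nothing to the calls. The ATP5MC1 minus ATP5MC3 difference was 0.24 higher (exact permutation p = 0.1, adjusted 0.125). For COX7A2L minus COX7A2 the difference changed by -0.045 (exact permutation p = 0.4, adjusted 0.4). For the remaining pair, COXFA4L3 and COXFA4, no comparison is given because COXFA4L3 was below the Tag level.

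Of the copies and pseudogenes, UQCRHL (0.13 ± 0.062) and ATP5MGL (-0.077 ± 0.12) did not pass, and SDHAP3 and SDHAP4 had mean signals of 3.98 and 4.24 with EPC-Exos and 4.23 and 4.38 with PBS, below the Tag level. UQCRHL is nearly identical to UQCRH, so the source of its signal is uncertain.

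Probe sets of the same gene disagreed in a minority of cases. In the limma fit over 27244 probe sets, 219 of the 251 member probe sets were tested and 102 called (46.6%, against 45.8% of all), 39 higher (17.8%, against 22.1%) and 63 lower (28.8%, against 23.7%). Of 62 members with several tested probe sets, 23 (37.1%) held changes of both signs, against 28.9% of 7171 such genes on the array, and 13 (21%) had all probe sets called in the same direction, against 27.9%. In 6 (9.68%), CYCS, ATP5MJ, COX20, COX19, NDUFS1 and COX11, probe sets were called in opposite directions, against 2.29% of all such genes. That count was 3 without EPC-Exos replicate 3 or without PBS replicate 3. The median spread of changes within a gene was 0.11 for these members and 0.16 for all genes.

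CYCS had the widest spread of these members, 1.08 log2 units. Besides the brightest probe set, another of mean signal 11.32 rose (0.61 ± 0.043), while a dimmer one, of mean signal 6.72, fell. That dimmer probe set, the only CYCS probe set without an _s_at or _x_at suffix, had 6.50, 6.32 and 6.65 with EPC-Exos and 7.06, 6.91 and 6.91 with PBS, a change of -0.47 ± 0.10. All its EPC-Exos values lay below its PBS values.

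ATP5MJ fell on its brightest probe set (-0.13) and rose on its dimmest tested one (0.50 ± 0.094). COX20 rose on its brightest probe set (0.25) and fell on the others (-0.35 and -0.21). COX19 rose by 0.24 on its brightest probe set and changed by -0.28 on its dimmest tested one. In NDUFS1, 4 of 5 probe sets lay between 0.099 and 0.16, of which 1 was called, and the dimmest fell (-0.35). COX11 ranged from -0.24 to 0.25 over 6 probe sets. In CYCS, COX19 and NDUFS1 the probe set called lower was thus the dimmest tested.

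Other members, named after their values were seen, depended on the probe set without opposite calls. NDUFC2 changed by 0.0047 on its brightest probe set and fell on the dimmer ones (-0.72 and -0.61). ATP5MG changed by -0.034 on its brightest probe set and fell on the others (-0.41 and -0.35). NDUFAF4 rose on the probe sets of mean signal 9.06 and 8.26 (0.93 and 0.96), while 1 of mean signal 5.87 did not pass (0.24 ± 0.13). CYC1 rose by 0.32 to 0.36 on all 3 of its probe sets. Many called members named in the text were read by a single tested probe set, so there is no other reading of them here. They were NDUFAF2, NDUFAF5, NDUFB1, NDUFA2, NDUFA9, NDUFAB1, NDUFV2, COX5B, COX6A1, COX6B1, COX7C, COX14, ATP5F1E, ATP5MC1, ATP5MC2 and ATP5PD. Of these, NDUFAF2, NDUFV2, COX6A1, ATP5F1E, ATP5MC1 and ATP5PD had an _s_at or _x_at probe set.

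**Figure D4:**
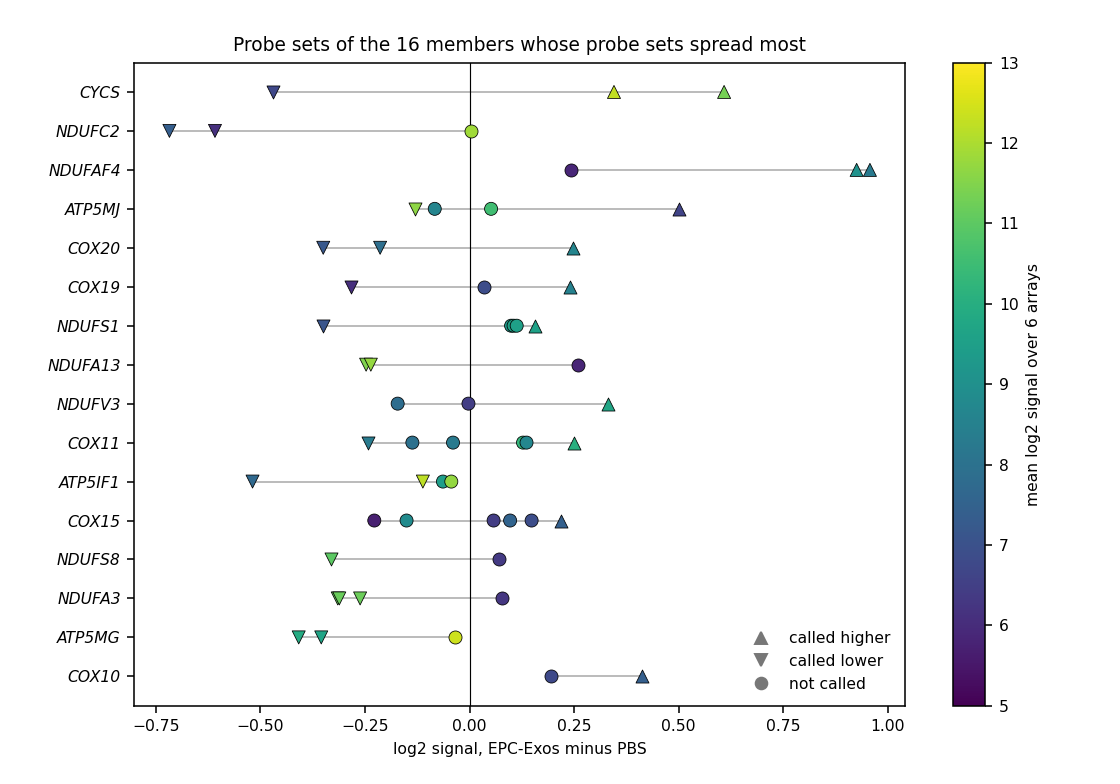
Log2 change (horizontal axis) of every tested probe set of the 16 members with the widest spread, with triangles for called probe sets and colour for mean log2 signal. In CYCS, NDUFS1 and COX19 the probe set furthest to the left is the dimmest, and in ATP5MJ the dimmest lies furthest to the right.

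Genes of the wider pathway were read from lists. Of 37 assembly factors with other names, 33 were tested, and 11 rose (33.3%, against 21.7% of all genes) and 7 fell (21.2%, against 27.3%; median -0.017). The rises were led by COA7 (0.63 ± 0.076), SCO2, a copper chaperone (0.58 ± 0.078), and COA6 (0.54 ± 0.068), all complex IV factors. COA7 had log2 signals of 8.54, 8.48 and 8.55 with EPC-Exos, against 7.94, 7.76 and 7.99 with PBS. SURF1, another complex IV factor, fell most (-0.59 ± 0.056), with 10.20, 10.33 and 10.28 in EPC-Exos arrays against 10.77, 10.86 and 10.94 in PBS arrays.

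Of 19 listed regulators of mitochondrial gene expression 18 were tested, with a median of 0.27. Of these, 11 rose (61.1%, against 21.7% of all genes) and 1 fell (5.56%, against 27.3%). PPRC1, a coactivator related to PGC-1α, had log2 signals of 8.35, 8.46 and 8.44 with EPC-Exos, against 7.51, 7.59 and 7.77 with PBS. All EPC-Exos arrays were higher, by 0.79 ± 0.081 (limma adjusted p = 4.89e-07). POLRMT, the mitochondrial RNA polymerase (0.56 ± 0.071), TWNK, the helicase of mitochondrial DNA (0.55 ± 0.080), and ESRRA, a nuclear receptor that drives respiratory genes (0.52 ± 0.071), rose as well. Among genes named after their values were seen, GABPA, an ETS factor of respiratory promoters, fell (-0.26 ± 0.078), while NRF1 (0.13 ± 0.086) and YY1 (0.0066 ± 0.058) did not pass. PPARGC1A, which encodes PGC-1α, had mean signals of 3.66 with EPC-Exos and 3.83 with PBS, below the Tag level.

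Among genes encoded in mitochondrial DNA, 3 had a probe set of their own, and 0 were called by limma (0 also at an unadjusted p under 0.05), with the alternatives that call COX3 given above. Besides COX3, ND4 changed by 0.027 ± 0.025 at mean signals of 14.15 with EPC-Exos and 14.13 with PBS, and ND1, named after its value was seen, by -0.029 ± 0.033.

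Of 19 tested genes of pyruvate dehydrogenase and the TCA cycle, 7 rose (36.8%, against 21.7% of all genes) and 2 fell (10.5%, against 27.3%; median 0.043). PDK1, a kinase that switches pyruvate dehydrogenase off (0.45 ± 0.070), DLAT, its acetyltransferase subunit (0.40 ± 0.060), and IDH3A, of isocitrate dehydrogenase (0.35 ± 0.066), rose, and the kinase gene PDK2 fell (-0.78 ± 0.079). Among 6 tested genes of other donors to ubiquinone, 2 rose (33.3%, against 21.7% of all genes) and 2 fell (33.3%, against 27.3%). DHODH, of pyrimidine synthesis (0.42 ± 0.10), and ETFA, of the electron transfer flavoprotein (0.33 ± 0.046), rose, while its partner ETFB (-0.28 ± 0.061) and GPD2, the mitochondrial glycerol phosphate dehydrogenase (-0.26 ± 0.063), fell.

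**Figure D5:**
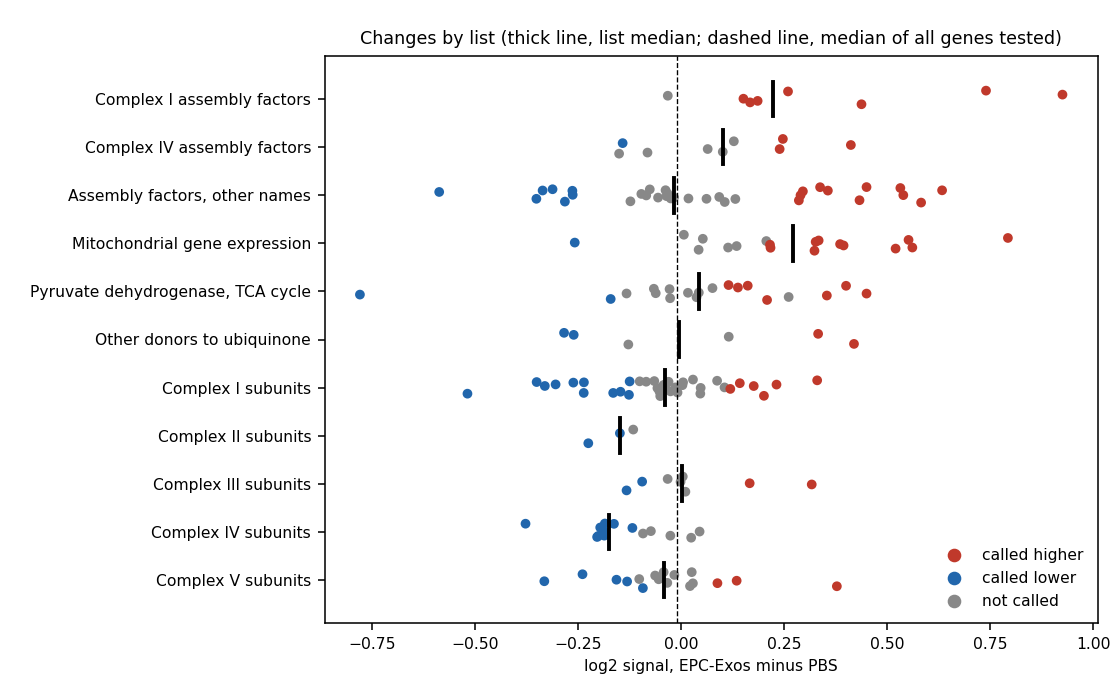
Log2 change (EPC-Exos minus PBS, horizontal axis) of each tested gene, by list, with the list median as a thick line and the median of all genes tested as a dashed line. Medians are 0.27 for mitochondrial gene expression regulators and -0.17 for complex IV subunits.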

How the data were processed

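RNA of the 6 HMEC-1 samples was measured on expression arrays of several probe sets per gene. The deposited values are log2 signals, a scale read from their range of 2.47 to 14.52. The submitters' processing notes mention MAS5 with no step attached to it; the sources used here give no background correction or scaling. The deposited scaling was kept. Sample titles gave groups and replicate numbers.

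Gene symbols came from the platform annotation, and 0 needed an update through RefSeq. Probe sets with several symbols (1832) were left out. The signal filter was the 40th percentile of mean signal over probe sets other than controls. The comparison used limma 3.58.1 under R 4.3.3 (lmFit, then eBayes with a variance trend) with group as its only term, two-sided, and the code was tested on simulated data. The number of arrays limits the precision.

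Members and lists were chosen with earlier results of these data known. The naming rule took, for each complex and for the assembly factors, up to 6 called genes by size and the 2 smallest changes, all isoform sets, members with opposite probe set calls, and up to 4 genes of each other list. It gave 75 genes, and others are marked in the text or belong to small groups given in full.

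Alternatives were other scalings (quantile, median, cyclic loess), signal filters, probe set choices, no variance trend, array weights, a replicate block, omission of single arrays, and limma's test for changes beyond 1.2-fold.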

Additional observations from a re-analysis of the deposited data

How the results depend on the processing

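Calls of 11 of the 22 members that rose and 15 of the 31 that fell held in every alternative in which the gene was tested, apart from the test for changes beyond 1.2-fold. That test left 4 members (3 higher, all complex I assembly factors, and 1 lower, a complex I subunit), 0 complex I subunits higher, 0 complex IV subunits lower and 0 complex V subunits in either direction. It also left 13 of 43 calls in the other lists, 5 regulators higher, 773 genes higher and 1068 lower over the array, 8 member probe sets and 0 members with opposite calls. Without the variance trend 34 of the 103 tested members were called, against 53 with it, and 19 of the 34 were lower. Over all genes 20.6% were then called higher and 25.7% lower, against 21.7% and 27.3% with the trend, so members lost more of their calls. The same fit gave 1 complex V subunit higher and 2 lower, 67 probe sets and 3 members with opposite calls. Median centring gave 2 complex V subunits lower. Without _x_at and _s_at probe sets 1 complex V subunit was lower, and the fewer probe sets tested gave 48 probe set calls and 1 member with opposite calls. With the filter at the 60th percentile 2 members had opposite calls. The median change of members, -0.034, was -0.055 with quantile normalization, -0.0095 with median centring and -0.054 with cyclic loess.

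Directions turned with the choice of probe set. Without _x_at and _s_at probe sets CYCS changed by -0.47, ATP5MJ by 0.50 and COX20 by -0.21. With the mean of a gene's tested probe sets NDUFC2 changed by -0.44, ATP5MJ by 0.085, COX20 by -0.11 and COX19 by -0.0031. Leaving out 1 array gave 4 to 6 complex I assembly factors higher, 3 to 6 members with opposite calls and 40 to 52 called members.

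With the replicate block 58 members were called, against 53 without it, and SDHD and COX3 were among those gained. The replicate numbers were not taken as pairs. Deviations of same-numbered arrays correlated at 0.20, 0.18 and 0.077, and every array correlated best with its own number, a hint from the data and not from the design.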

Other observations

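Probe sets that the annotation gives to several genes were left out of all counts, and some include a respiratory gene. The probe set shared by SDHA and SDHAP3 had mean log2 signals of 10.01 with EPC-Exos and 10.27 with PBS, and the one shared by SDHA, SDHAP1 and SDHAP2 had 11.47 and 11.67, both on the same side as SDHA itself. A probe set shared by GCSH, NDUFS1 and copies had mean signals of 10.80 with EPC-Exos and 10.41 with PBS, a difference of 0.39, and the one shared by COX20 and COX20P1 had 9.09 and 8.66, a difference of 0.42. The probe set shared by the mitochondrial genes ATP6 and COX1 had 13.57 with EPC-Exos and 13.60 with PBS. Probe sets shared by COX7A2 and TMEM30A differed by -0.34 and -0.054. None of these was tested.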
